A study of Mus musculus with 4 samples.

Results

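The replication-dependent histone H3 genes with SOX3 peaks in mouse testis were examined in chromatin immunoprecipitation sequencing (ChIP-seq) data. The members were the 8 H3 genes Hist1h3a, Hist1h3b, Hist1h3d, Hist1h3h, Hist1h3i, Hist2h3b, Hist2h3c1 and Hist2h3c2, chosen by the presence of a peak in at least 2 of 3 samples: the authors' table of 778 common peaks names them as nearest gene. They carried 10 of these peaks. All 3 SOX3 ChIP samples and the single input sample came from testis of strain 129/SvJ at postnatal day 7. The protocols describe Sox3 null mice of mixed background crossed onto 129/SvJ. The labels state no genotype for any testis, so it is not known here whether a sample carried the null allele. SOX3 was precipitated with a goat antibody against the human protein, and the input had no antibody. The design text describes unique testes for the 3 samples, so the spread between them holds differences between testes together with those of preparation. Whole testis was used, so a peak cannot be assigned to a cell type, and a list of peaks holds no expression values with which to check the tissue.

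Replication-dependent histone genes supply the bulk of new histones when a cell copies its DNA. They are short genes without introns, stand in clusters, and their transcripts end in a stem-loop in place of a poly(A) tail. In mouse the largest cluster lies on chromosome 13 and a smaller one on chromosome 3. H3 pairs with H4 in the core of the nucleosome, and the H3 genes encode either of the near-identical proteins known as H3.1 and H3.2. SOX3 is a transcription factor of the SOXB1 group, whose HMG box binds short AT-rich sites, and in the postnatal testis it is known from spermatogonia. Day 7 testis holds dividing spermatogonia and Sertoli cells.

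The DNA just before the gene starts is shown because most H3 peaks began close to it. RefSeq windows (build GRCm38.p6) were found for 7 of the 8 members, and none was found for Hist1h3a. Coordinates in this paragraph are of that build, while all peak positions are in mm9, and they are not to be set against each other. Each line runs 5′ to 3′ on the gene's strand and ends at the base before the start. Capitals mark the letters ACAAT (a core of HMG box sites), CCAAT (the box bound by NF-Y) and TATAAA (the TATA box) on either strand.
Hist1h3b, chr13:23752225-23752344, + strand: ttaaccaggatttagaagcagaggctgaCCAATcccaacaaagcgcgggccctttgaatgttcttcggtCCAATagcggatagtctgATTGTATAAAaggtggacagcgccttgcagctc
Hist1h3d, chr13:23575643-23575762, + strand: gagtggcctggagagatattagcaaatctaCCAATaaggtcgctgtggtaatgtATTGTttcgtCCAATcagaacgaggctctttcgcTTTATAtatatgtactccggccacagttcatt
Hist1h3h, chr13:21717508-21717627, + strand: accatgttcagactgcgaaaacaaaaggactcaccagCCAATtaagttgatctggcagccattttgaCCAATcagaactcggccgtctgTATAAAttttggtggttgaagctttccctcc
Hist1h3i, chr13:21783398-21783517, - strand: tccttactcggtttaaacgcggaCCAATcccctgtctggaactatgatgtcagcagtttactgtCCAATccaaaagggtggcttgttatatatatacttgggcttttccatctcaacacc
Hist2h3b, chr3:96268534-96268653, + strand: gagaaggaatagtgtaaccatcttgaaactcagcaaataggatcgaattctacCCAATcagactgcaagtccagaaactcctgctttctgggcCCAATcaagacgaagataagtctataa
The next 2 are shown at greater length because they are near-identical copies of each other, and they hold none of the 3 motifs before the start.
Hist2h3c1, chr3:96246435-96246684, + strand: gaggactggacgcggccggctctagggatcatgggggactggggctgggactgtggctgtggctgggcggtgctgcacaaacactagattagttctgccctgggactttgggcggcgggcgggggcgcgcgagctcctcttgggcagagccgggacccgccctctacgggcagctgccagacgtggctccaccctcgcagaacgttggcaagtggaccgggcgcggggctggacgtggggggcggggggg
Hist2h3c2, chr3:96239128-96239377, - strand: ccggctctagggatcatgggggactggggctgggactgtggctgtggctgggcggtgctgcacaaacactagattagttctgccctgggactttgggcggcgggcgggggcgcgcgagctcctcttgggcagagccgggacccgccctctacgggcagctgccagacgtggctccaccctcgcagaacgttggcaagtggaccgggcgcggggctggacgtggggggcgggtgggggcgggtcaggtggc

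The windows before the annotated starts were of 2 unlike kinds, and the near-identical Hist2h3c1 and Hist2h3c2 made up the second. In the 250 bases before the start, the 5 other matched members had a GC content of 32.8% (Hist1h3d) to 41.2% (Hist1h3b), whereas Hist2h3c1 and Hist2h3c2 had 71.2% each. The median over all promoters in the table was 52.4%. CCAAT stood in the window of 5 of the 7 matched members, against 33.8% of the 32851 windows of that length in the table. It was also found in the windows of Hist1h3c, Hist1h3e and Hist1h3g, H3 genes without a common peak. In Hist2h3c1 and Hist2h3c2 the same letters came only after the annotated start, at 29 to 33 and 14 to 18 bases. TATAAA was found in 4 of the 7 members and in 12.4% of all windows. GGGCGG, the GC box, was found in Hist2h3c1 and Hist2h3c2 alone among the 7, and in 32.7% of all windows.

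HMG box letters were found in some of these windows. ACAAT stood in Hist1h3b, Hist1h3d and Hist1h3i, which is 3 of 7 members, against 27.7% of all windows. Its longer form AACAAT, which contains it, was in Hist1h3d and Hist1h3i (9.42% of all windows). ACAAAG and the longer AACAAAG were in Hist1h3b and Hist1h3d (16.5 and 5.03% of all windows). In Hist1h3b the letters ATTGT, the reverse strand of ACAAT, lay 33 to 29 bases before the start and shared their last base with the TATAAA. With each distance taken from its own table's start, this was the single ACAAT place inside the gene's common peak, which ran from 69 bases before to 379 after the start. The other 3 ACAAT places, 2 in Hist1h3d and 1 in Hist1h3i, lay before the peak of their gene. The starts of Hist1h3b in the 2 builds were not offset as those of Hist1h3d, Hist1h3h and Hist1h3i were, so its 2 scales differ. How far inside the Hist1h3b peak the letters lie is thus not settled. The octamer ATTTGCAT and the E2F letters TTTCGCGC were in none of the 7 windows and in 1.6 and 0.256% of all. These are matches of letters, and most of each peak lay outside the windows searched.

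SOX3 peaks at the H3 genes fell into 2 groups by chromosome. All 5 peaks on chromosome 3, at Hist2h3b, Hist2h3c1 and Hist2h3c2, were present in all 3 replicate lists. All 5 peaks on chromosome 13, at Hist1h3a, Hist1h3b, Hist1h3d, Hist1h3h and Hist1h3i, were present in the lists of replicates 1 and 2 and had no overlapping peak in replicate 3. Over all common peaks, 29.9% were in all 3 lists and 23.8% lacked replicate 3. A common peak needed 2 of the 3 lists, so a peak absent from 1 had to be in both others. The presence of these peaks also chose the members, and no test was made on it. The proteins encoded followed this split in part. Of the 5 genes absent from replicate 3, RefSeq links Hist1h3a, Hist1h3h and Hist1h3i to the group known to encode H3.1. The remaining 2, Hist1h3b and Hist1h3d, belong with the chromosome 3 genes to the group known to encode H3.2. No gene of the H3.1 group lies on chromosome 3, so protein and chromosome cannot be told apart for it.

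The 5 chromosome 13 peaks scored above the median of all peaks in their lists with 1 exception, Hist1h3i in replicate 1. Against common peaks alone, most of these scores were below the median, as given in the next paragraph. The score, a value the authors gave each peak, has no stated scale and began at about 40 in each list, so it is read within a list. Highest scores taken over several lists are rough for that reason. Hist1h3h (chromosome 13, 21809474 to 21809969) scored 66.1 in replicate 1 and 56.7 in replicate 2. Hist1h3i (21874792 to 21875299) scored 43.4 in replicate 1 and 78.1 in replicate 2. Hist1h3d (23667675 to 23668022) scored 55.9 and 57.7 in these lists. The Hist1h3i peak was thus in the lower part of the first list, with 72.6% of its peaks scoring higher, and in the upper part of the second, with 12.8% scoring higher.

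The neighbouring genes Hist1h3b and Hist1h3a were of the same kind. Hist1h3b (chromosome 13, 23844180 to 23844628) scored 57.6 in replicate 1 and 62.9 in replicate 2. Hist1h3a (23853921 to 23854301) scored 59.3 in replicate 1 and 86.7 in replicate 2. Across the 5 chromosome 13 genes the scores ran from 43.4 to 66.1 in replicate 1 and from 56.7 to 86.7 in replicate 2. The median scores of all peaks in these lists were 47.8 and 48.1. Over the common peaks alone the medians were 67.3 in replicate 1 and 68.0 in replicate 2. All 5 genes scored below this median in replicate 1. In replicate 2, Hist1h3h, Hist1h3d and Hist1h3b scored below it and Hist1h3i and Hist1h3a above it.

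Scores on chromosome 3 were higher in replicate 1 and spread more widely in replicate 2. Hist2h3b (chromosome 3, 96072453 to 96072813) scored 109 in replicate 1, 45.9 in replicate 2 and 73.2 in replicate 3. Its rank differed much between lists, as 6.63, 58.8 and 13.1% of the peaks in lists 1, 2 and 3 scored higher. Each of the 2 Hist2h3c2 peaks scored 103 in replicate 1, 69.7 in replicate 2 and 118 in replicate 3. In replicate 1 the chromosome 3 scores (103 to 121) all lay above the chromosome 13 scores, whereas in replicate 2 (45.9 to 249.5) they overlapped. The highest H3 score was that of a Hist2h3c1 peak in replicate 2, where 1.96% of the list scored higher.

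**Figure D1:**
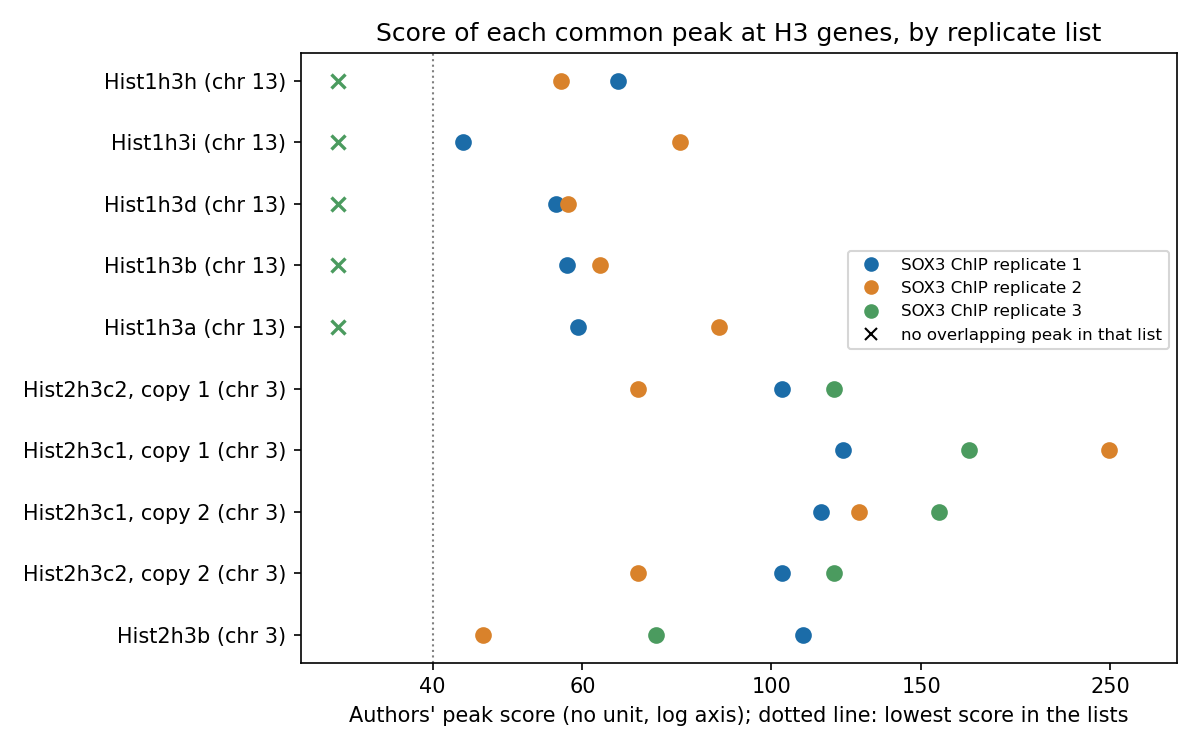
Authors' score (log axis, no unit) of each of the 10 common peaks at H3 genes, with 1 point per replicate list, crosses for lists without an overlapping peak, and a dotted line at the lowest score in the lists. The 5 chromosome 13 peaks have crosses in replicate 3 throughout, while the 5 chromosome 3 peaks have a score in every list.

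Replicate 3 held no peak over the chromosome 13 H3 genes although it held peaks close by. The nearest replicate 3 peak to Hist1h3a lay 916 bp away at Hist1h4a, with a score of 107. The nearest to Hist1h3b lay 4276 bp away at Hist1h4b (score 107), and the nearest to Hist1h3i lay 4262 bp away at Hist1h2bp (score 56.8). For Hist1h3h it was a peak of score 41.6 at 993 bp that belongs to no common peak, and for Hist1h3d a peak at Hist1h1d, 20393 bp away. Replicate 3 thus had peaks elsewhere in the cluster. At Hist1h3d the stretch without them was not confined to H3 genes. RefSeq also places H2ac8, H2bc8, H2bc7 and H2ac7 between Hist1h1d and Hist1h3d, and no list held a peak between the common peaks of these 2. The next common peak after Hist1h3d, at Hist1h1e, also lacked replicate 3.

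Common peaks of the other histone families on chromosome 13 were mostly present in replicate 3. Replicate 3 had a peak at 10 of 10 common peaks of H4 genes, 10 of 10 of H2B genes, 3 of 3 of H2A genes and 2 of 3 of H1 genes. Together this was 25 of 26, and the 1 exception was Hist1h1e, which encodes a linker histone. Absence from replicate 3 was thus seen in 5 of 5 H3 peaks (100%, exact Clopper-Pearson 95% interval 47.8 to 100%) and in 3.85% of the other histone peaks there (0.0973 to 19.6%). Over all common peaks, 23.8% were absent from replicate 3. In replicates 1 and 2, absences were 0 of 5 H3 peaks and 4 of 26 others in each, where 20.3 and 26.0% of all common peaks were absent. The 0 of 5 was fixed by the rule, since a common peak absent from 1 list had to be in both others, so nothing is read from it. These intervals cover counting error only, neighbouring genes are not independent, and the difference was not tested because presence in the lists chose the members. Replicate 3 is a single library, and with 1 library a property of that testis and of its preparation cannot be told apart.

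**Figure D2:**
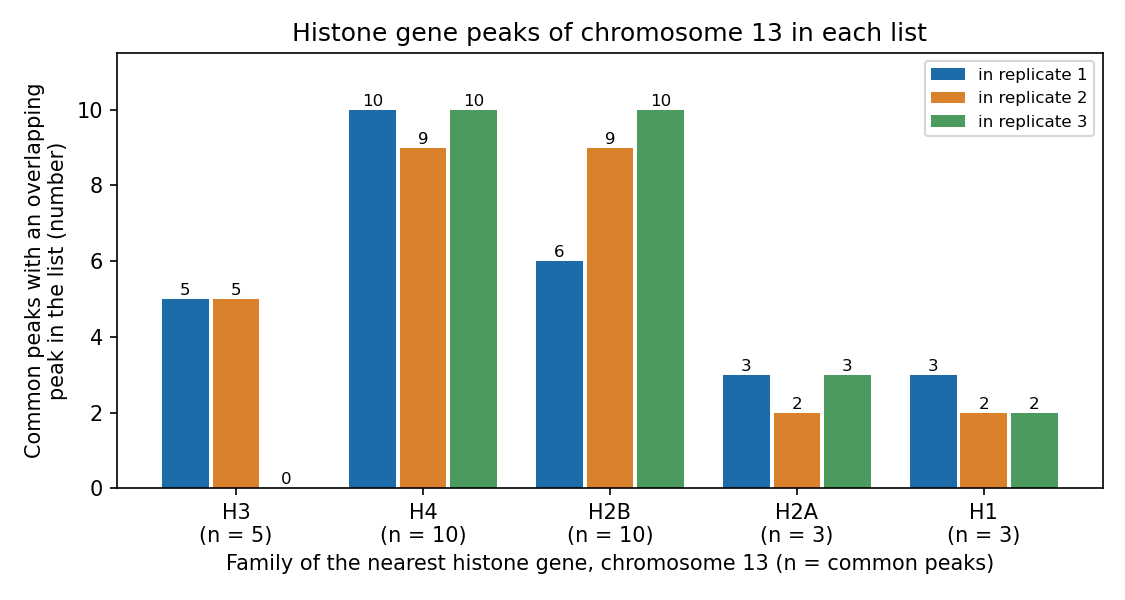
Number of common peaks at histone genes of chromosome 13 that have an overlapping peak in each replicate list, by family of the nearest gene (n, common peaks of that family). The H3 bars stand at 5, 5 and 0, whereas the H4 bars stand at 10, 9 and 10.

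The peaks lay over the genes more than before them. By HOMER's distances, from the peak's midpoint to the transcription start site (TSS), 8 of the 10 peaks were centred 56 to 224 bp downstream of the start, with a median of 192 bp. Over all 10 the median was 173.5 bp, and over the 29 common peaks of the other histone families it was 186 bp. This position was thus not particular to H3. Of the 134 common peaks within 1000 bp of a TSS, 63.4% were centred downstream. The 8 peaks had from 65.7% (Hist2h3b) to 100% of their length past the start, and they ended 236 to 474 bp after it. The peak of Hist1h3d began 43 bp after the start, while that of Hist2h3b began 124 bp before it. HOMER classed 2 peaks (Hist1h3d and Hist1h3i) in the only exon of the gene, 4 at promoters, and 4 at a transcript's end. At those last 4, the Hist1h3h, Hist1h3b and 2 Hist2h3c2 peaks, the transcript named was not the one with the nearest start. The same held for the Hist1h3a peak, classed at a promoter.

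The common intervals were mostly those of replicate 1. Of the 10, 8 equalled a replicate 1 peak to the base, and the other 2 were wider than any replicate peak. In replicate 2 the Hist1h3i peak was centred 125.5 bp downstream, against 220.5 bp in replicate 1. The Hist2h3b peak was centred 56 bp downstream in replicate 1 and 137.5 and 138.5 bp in replicates 2 and 3. With the highest-scoring replicate peak in place of the common interval, the median over the 10 was 150.5 bp, with Hist1h3a kept at the 144 bp of its common interval because its strand was not in the table used. The common H3 peaks had a median width of 415 bp, against 280 bp for all 778. Peaks of the other histone families had a median of 366 bp. On chromosome 13 it was 430.5 bp for H4 and 234.5 bp for H2B, so the width was not particular to H3. In the replicate lists, 13 of 13, 10 of 11 and 5 of 5 peaks at H3 genes were wider than the list's median of 165, 164 and 153 bp. These medians are over all peaks of a list, whether common or not. The counts include the equal Hist2h3c2 peaks at both places and, in replicates 1 and 2, several peaks within a Hist2h3c1 interval.

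**Figure D3:**
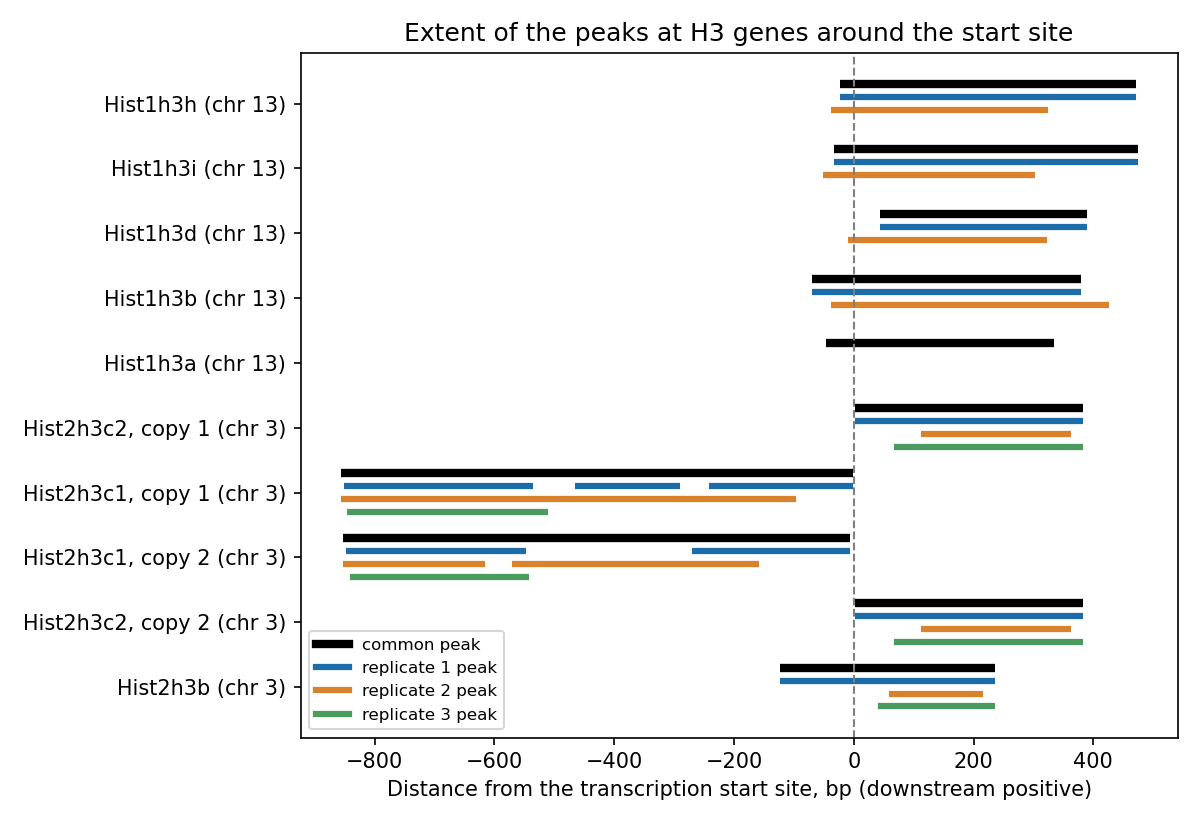
Extent of each common peak (black) and of the overlapping replicate peaks (coloured) around the start site, in bp, positive downstream; for Hist1h3a only the common peak is drawn, since the gene's strand was not in the table used. The common peaks of 5 genes cross the start, those of Hist1h3d and Hist2h3c2 begin 43 and 2 bp after it, and those of Hist2h3c1 end 2 and 6 bp before it.

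The names Hist2h3c1 and Hist2h3c2 did not stand for separate genes in these peaks. Each name was given to 2 peaks, 1 at each of a pair of mirror-image copies on chromosome 3 that together span 8338 bp. At the lower copy, on the minus strand, the Hist2h3c2 peak ran from 96042668 to 96043048 and the Hist2h3c1 peak from 96043067 to 96043922. At the upper copy, on the plus strand, they ran from 96050625 to 96051005 and from 96049755 to 96050602. The starts implied by HOMER's distances for the 2 names differed by 15 bp at either copy. So at each copy the peak called Hist2h3c2 lay over the H3 gene, 192 bp downstream of the start, and the peak called Hist2h3c1 lay 429 or 430 bp upstream of nearly the same start. The peaks were 18 and 22 bp apart at the lower and the upper copy. The RefSeq promoter windows of the genes show the same offset: shifted by 15 bases, they differed at 1 of 285 bases, whereas the other 20 pairs of members shared 27.3 to 36.1% at their best shift.

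The peaks over the gene were exact mirror images with equal scores. The Hist2h3c2 peaks were 381 bp wide in replicate 1, 251 bp in replicate 2 and 316 bp in replicate 3 at both copies, with the scores given above. Their edges, reflected about the middle of the pair, met to the base. Reads from identical sequence fit both places, and how the authors placed such reads is not stated in the labels or headers, so these 2 peaks may hold 1 signal. Counted as 1, the H3 genes had 9 common peaks, 4 of them in all 3 lists.

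The upstream peaks were not equal at the copies. The lower Hist2h3c1 peak scored 121, 249.5 and 171 in replicates 1, 2 and 3, and the upper one 114, 127 and 157. In replicate 1 the lower interval held 3 peaks (121, 76.4 and 47.3) and the upper one 2 (114 and 76.2). In replicate 2 the lower interval held a single peak of 762 bp and the upper one 2 peaks, with scores of 127 and 77.0. Replicate 3 had 1 peak in each, 511 to 846 and 542 to 842 bp upstream of the H3 start, and none nearer to it. The far end of the interval was the part found in all 3 lists at both copies. From its last base it was 29 bp to the first base of the peaks at Hist2h2aa1, an H2A gene, which had the highest histone scores (336 to 392).

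**Figure D4:**
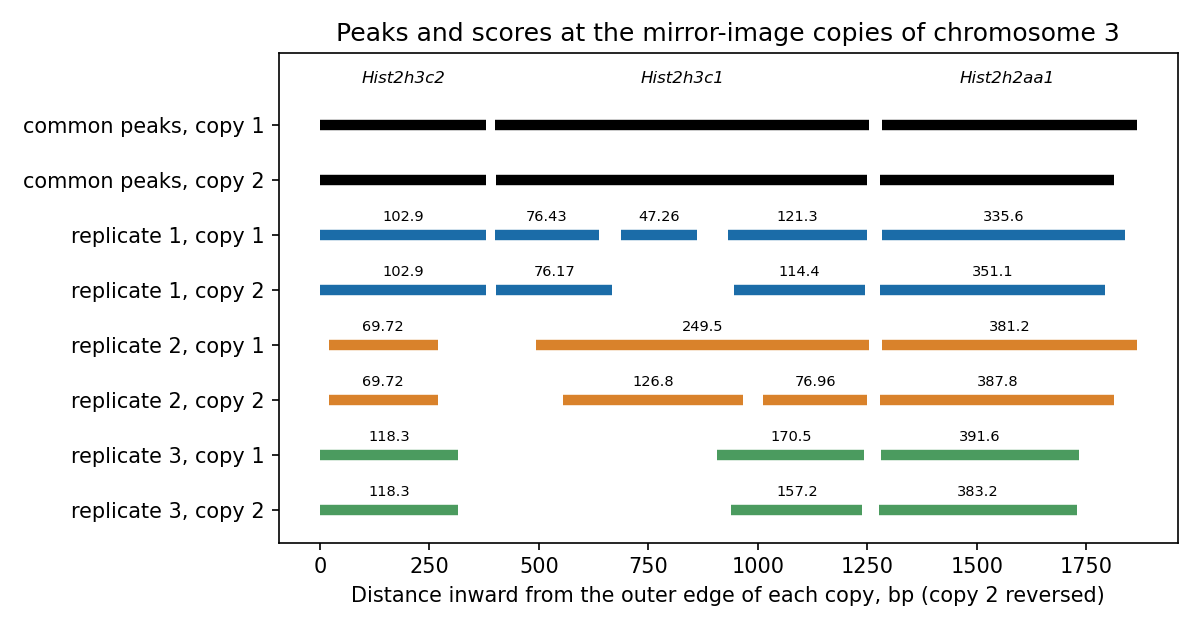
Common peaks (black) and replicate peaks (coloured, with the authors' scores) at the mirror-image copies, by distance in bp inward from the outer edge of each copy, with copy 2 (the upper) reversed. The Hist2h3c2 peaks coincide at both copies with equal scores in each list, while the Hist2h3c1 peaks differ in number, width and score.

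Among all 12 replication-dependent H3 genes, 8 (66.7%, 95% interval 34.9 to 90.1%) carried a common peak no more than 5000 bp from the start, against 0.712% of 21900 protein-coding genes. Since a common peak chose the members, nothing is read from this share. Of the genes known to encode H3.1, 3 of 4 were members, and of those known to encode H3.2, 5 of 8. Without replicate 1 the count was 3 genes, and without replicate 2 it was also 3, since a peak then had to be in replicate 3. Those 3 were the chromosome 3 genes, which were also the genes with a peak in all 3 lists (25.0% of 12, 5.49 to 57.2%). Without replicate 3, all 8 genes and all 10 peaks were in both lists that remained.

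The 4 H3 genes without a common peak were Hist1h3c, Hist1h3e, Hist1h3f and Hist1h3g, all on chromosome 13. In RefSeq's gene order Hist1h3c and the pseudogene H2ac5-ps are the only entries between Hist1h1c and Hist1h2bb. Between the common peaks of those neighbours replicate 2 had a peak of 466 bp (23836972 to 23837437) with a score of 74.7. That peak had no overlapping peak in the other lists and so fell just outside the rule, while its score was above those of 3 of the 5 chromosome 13 members in the same list. No position of Hist1h3c in mm9 was used, so the peak is placed between the neighbours and not on the gene. The peaks just inside the rule were the 5 found in 2 lists, with scores from 43.4. Between the flanking common peaks of Hist1h3e (Hist1h1d and Hist1h3d) the lists held 0 peaks, and likewise 0 between those of Hist1h3f and Hist1h3g (Hist1h4h and Hist1h4f).

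Genes that serve H3 outside these clusters were looked up as well. Of the replacement H3 genes, whose products enter chromatin outside DNA replication, H3f3b had a common peak 99 bp downstream of its start (chromosome 11, 115885513 to 115885926) with scores of 137, 133 and 249.6, and H3f3a and Cenpa had none. Unlike the chromosome 13 H3 genes, H3f3b was thus present in replicate 3. Of 25 genes for the transcription and processing of histone transcripts and for H3 and H4 chaperones, such as Npat, Slbp, Asf1b, Chaf1a and Hira, 0 had a common peak within 5000 bp. By an approximate limit, 3 divided by the number of genes, that count allows a share of up to 12.0%. Since 0.712% of all protein-coding genes had such a peak, nothing is read from the 0.

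The peaks most like the H3 peaks of chromosome 3 in their scores were sought among 60 other common peaks present in all 3 lists and within 1000 bp of a TSS. Likeness was the Euclidean distance of the log10 scores in the 3 lists from the H3 medians of 109, 69.7 and 118. The nearest was Hist1h4n (97.0, 73.4 and 108; distance 0.068), an H4 gene on chromosome 13. Next came H2afx, which encodes the H2A variant of DNA damage signalling (83.8, 80.3 and 110; distance 0.133), and Gdpd1, which encodes a phosphodiesterase of lipids (102, 99.3 and 91.6; distance 0.191). This describes the scores of 3 lists.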

How the data were processed

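Testis fragments were kept in 1% formaldehyde for 8 min, the lysate was sonicated for 15 min and libraries were sequenced with single reads of 50 bp, per the labels' protocols. Per the submitters' processing notes, Bowtie2 2.0.0 and build mm9 were used. Each ChIP sample has 1 deposited peak list (2912, 2598 and 2734 peaks), with names beginning with MACS and the authors' score per peak. The caller's settings, the use of the input and the handling of reads that fit several places are not stated there. The deposited common table holds peaks of at least 2 samples, annotated by HOMER on mm9 per the file headers, with the distance to the TSS in bp. Its own deposited score is 0 in all 778 rows and was not used. Reads per library are unknown, so depth gives no interval, and the input was not analysed here.

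A replicate peak belonged to a common peak when they overlapped by at least 1 bp. Where several did, the highest score was taken. The start was recovered from the midpoint, the distance and the strand in RefSeq's promoter table, with the strand at the mirror copies taken from RefSeq's gene order. Presence, scores, widths and distances all come from the peaks that chose the members, so no test was made. Intervals of shares are exact Clopper-Pearson ones, except for the approximate limit given for the listed genes without a peak. The named genes were the members, the other H3 genes, the neighbours and listed genes with a common peak, and the 3 peaks nearest in score. Members and lists were chosen with earlier results of these data known. Alternatives were a 50% reciprocal overlap, scores of at least 50 or 60, each replicate left out, other TSS limits, equal peaks counted as 1 and another midpoint. Overlap and motif searches were tested on simulated data. Python 3.11.15, pandas 2.3.3 and scipy 1.17.1 were used.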

Additional observations from a re-analysis of the deposited data

How the results depend on the processing

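The count of 8 H3 genes and 10 common peaks was 7 or 8 genes and 8 to 10 peaks with a 50% reciprocal overlap, with scores of at least 50, with other TSS limits or with equal peaks counted as 1. With scores of at least 60 it fell to 3 genes and 5 peaks, all on chromosome 3. Leaving out 1 replicate gave 3 to 8 genes and 5 to 10 peaks, with 3 genes and 5 peaks without replicate 1 or 2. With 1 replicate left out, H3 peaks in all remaining lists numbered 5 to 10 and their genes 3 to 8, the higher values without replicate 3. With scores of at least 50, and also of at least 60, 4 peaks and 2 genes were in all 3 lists, and with equal peaks counted as 1 it was 4 peaks. With a 50% reciprocal overlap 2 peaks and 1 gene (Hist2h3c2) were in all 3 lists, as the Hist2h3c1 peaks then matched at most 1 list and Hist2h3b matched 2. The median distance was 56 to 173.5 bp over the replicates left out and 150.5 bp at the highest-scoring replicate peaks, with Hist1h3a kept at its common interval. The best score of a peak was its highest over the lists, 2 lists for the chromosome 13 peaks and 3 for those of chromosome 3. It thus sets scores of different lists side by side and is rough. Its median of 97.9 lay between 82.4 and 118.3 with a 50% reciprocal overlap, with each replicate left out and with equal peaks counted as 1. This median was not recomputed for the score minima or TSS limits. No paired analysis was possible because the ChIP samples form 1 group and the input has no replicate number. Peak lists hold no reads, so whether a peak missing from a list had signal under the threshold is not detectable here.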
